A study of Mus musculus with 60 samples.

Results

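The collagen gene family was taken as every gene in the deposited count table whose symbol has the form of a collagen chain, Col, a type number, the letter a and a chain number. Of 55011 genes in the table, 44 have such a symbol. Membership rests on the symbol alone, but the family was chosen with earlier results of these data known. Among them, 28 reached a mean of at least 1 CPM (the usual unit of a gene's counts relative to the total of its library) over the 52 libraries of whole fat tissue and are called expressed here. The expressed member nearest to that limit was Col13a1, at a mean of 1.06 CPM, followed by Col20a1 at 1.19, and the nearest below it were Col9a3, at 0.532 CPM, and Col6a5, at 0.489. Collagens are extracellular proteins built from chains that wind around each other into a rope-like helix. The fibrillar types I, III and V give connective tissue its tensile strength, type IV forms the sheet of the basement membrane that surrounds blood vessels and every fat cell, and type VI forms beaded filaments that tie cells to the fibres around them. In adipose tissue the fibrillar chains are made mainly by fibroblasts and adipocyte progenitors, and the matrix they build is known to limit how far fat cells can grow.

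RNA-seq was carried out on whole brown adipose tissue (BAT, the heat-producing depot) and subcutaneous adipose tissue (SAT) of 8-week-old male mice, and on sorted regulatory T (Treg) cells, the CD4+ T cells that restrain immune responses. In the B6.Foxp3.DTR strain, cells that express Foxp3, the transcription factor that defines Treg cells, carry the diphtheria toxin receptor in DTR+ animals, and diphtheria toxin (DT) kills them, whereas DTR- animals lack the receptor. Every group of this strain was labelled as given DT except the group at 4 degrees. The set labelled D4 held 4 DTR+ and 4 DTR- libraries of each depot. The set labelled D3, whose titles also name PBS (phosphate-buffered saline), held 3 of each, and the labels do not spell out D3 and D4. In BAT, 3 DTR- libraries came from mice given DT and PBS, and 3 DTR- and 3 DTR+ libraries from mice given DT and CL. The labels give only these letters, which were taken to mean the agonist of the beta-adrenergic receptor of adipocytes that is used to mimic cold. The 3 libraries of the group at 4 degrees, called WT in their titles and DTR- in their genotype label, came from mice given PBS with no DT. In DTR+ mice given DT, 3 BAT libraries followed an antibody to interferon gamma (anti-IFNg) and 3 an isotype control antibody. In wild-type (WT) C57BL/6J mice, 3 BAT libraries followed PC61, an antibody to CD25, a surface receptor that Treg cells carry, and 3 an isotype control. The 8 sorted Treg libraries came from BAT, SAT and spleen of B6.Foxp3.Thy1.1 reporter mice.

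Library totals in whole fat ran from 3007241 to 9673342 counts. Levels below are scaled CPM, which is CPM divided by edgeR's TMM factor, a scaling that sets the typical gene equal between libraries. A gene is said to have risen or fallen where edgeR's quasi-likelihood test gave a p under 0.05 after Benjamini-Hochberg adjustment over all genes tested. Where groups are said not to overlap, this describes the values only, because the share of all genes without overlap was not counted. Nothing in the labels says that the libraries of a group came from separate animals, so the p-values measure the spread between these libraries, which may be technical. In whole tissue, fewer cells of a type and less RNA per cell cannot be told apart. The summed level of 6 brown adipocyte markers, Ucp1 among them, was 9038 to 30533 scaled CPM in the 38 BAT libraries and 241 to 1528 in the 14 SAT libraries. Foxp3 had 0 to 29 counts per whole-fat library, with none in 37 of the 52, too few to check the removal of Treg cells in each library, against 1741 to 2541 in sorted Treg cells. The 4 D4 DTR+ BAT libraries had none, but neither had any library given CL, any BAT library of WT mice given PC61 or isotype, or any at 4 degrees. D4 DTR- BAT had 0 to 2 counts. The 29 counts came from the D4 DTR- SAT library described next. In the D4 set of SAT, 1 library stood apart in each group: DTR- replicate 3 held B cell markers at a summed 195 scaled CPM, and DTR+ replicate 3 held skeletal muscle markers at 3081. Skeletal muscle markers varied widely in BAT as well, from 3.44 to 8960.2 scaled CPM.

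Col3a1, the chain of fibrillar collagen III, was the most abundant member. It averaged 1664 CPM over whole fat, with 237 CPM in the lowest library and 7054 in the highest. Per kilobase of its principal transcript this came to 299 CPM. The chains of collagen I, the main fibre protein of skin, tendon and bone, followed at 113 CPM per kilobase for Col1a2 and 106 for Col1a1. Next came the basement membrane chains Col4a1 at 58.0 and Col4a2 at 55.4 CPM per kilobase, with the collagen VI chains Col6a1 at 56.8 and Col6a2 at 45.1. The collagen V chains, which set the diameter of fibrils, were lower: Col5a2 stood at 16.1, Col5a3 at 14.8 and Col5a1 at 7.20 CPM per kilobase. Col6a3, the largest chain of collagen VI, reached 11.7. Then came Col18a1 and Col15a1, the multiplexin collagens of vessel basement membranes, at 8.58 and 7.48. The fibril-associated Col14a1, Col12a1 and Col16a1, which decorate the surface of fibrils, stood at 4.27, 1.24 and 1.22, the fibrillar Col27a1 at 2.699, and Col8a1, a chain of the hexagonal network of vessel walls, at 1.06 CPM per kilobase. These averages pool the 38 BAT and 14 SAT libraries, and the order was not the same in every group. In isotype-treated WT BAT, Col4a1 read 262, 198 and 274 CPM and Col1a1 98.1, 66.7 and 88.6. In D4 DTR- SAT, Col4a1 read 635, 621, 492 and 483 CPM and Col1a1 2620, 2254, 889 and 2046.

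**Figure D1:**
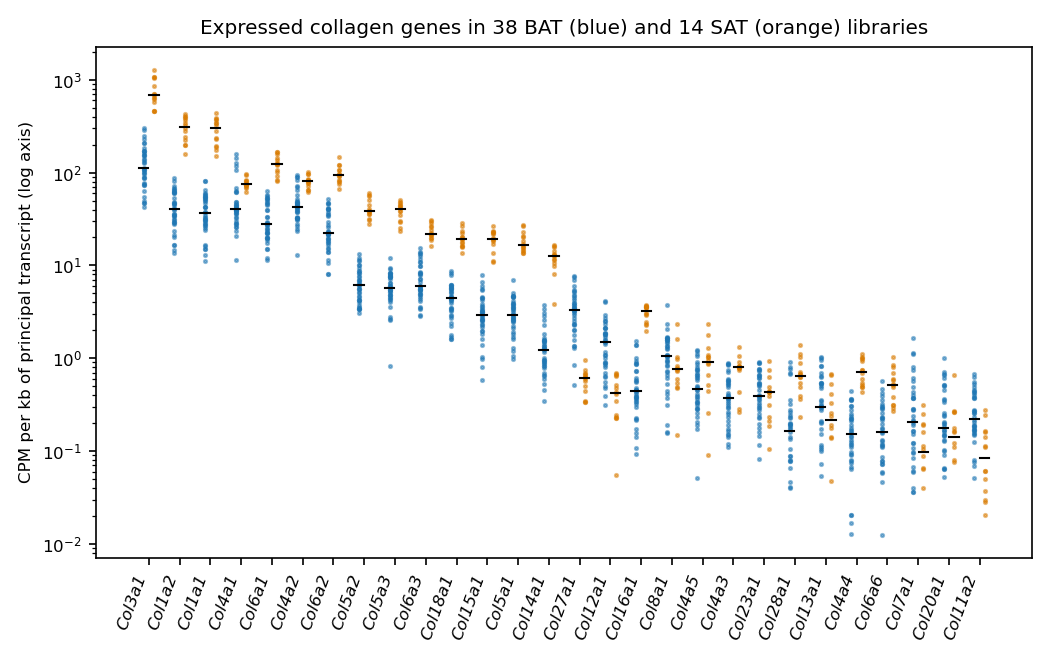
Level of each of the 28 expressed collagen genes (x axis) in CPM per kilobase of principal transcript (y axis, log scale), with 1 point for each of 38 BAT libraries (blue) and 14 SAT libraries (orange) and a bar at the median of each depot. Libraries with no count of a gene are not drawn. Col3a1 leads in both depots, and Col27a1, Col12a1, Col8a1, Col7a1 and Col11a2 are among the genes with BAT medians above their SAT medians.

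Of the 28 expressed members, 22 had a count in all 52 whole-fat libraries. The rest were Col11a2, detected in 51 libraries, Col6a6 in 49, Col7a1 in 47, Col28a1 in 46, and Col20a1 and Col13a1 in 45 each. Col7a1, the anchoring fibril chain of skin, averaged 2.49 CPM and Col23a1, a transmembrane chain, 2.54. The minor basement membrane chains averaged 4.34 CPM for Col4a3, 3.30 for Col4a4 and 4.23 for Col4a5. Col6a6 averaged 2.48 CPM, Col28a1 1.46 and Col11a2, a minor fibrillar chain of cartilage, 1.24. Among the 16 members below the limit, Col17a1, which anchors epithelial cells, reached 5.17 CPM in 1 library, and Col10a1, the collagen of growth plate cartilage, 4.75. Col6a5 peaked at 2.84 CPM, Col9a3 at 2.78, Col4a6 at 2.18, Col11a1 at 1.64, Col8a2 at 1.61, Col24a1 at 1.32 and Col19a1 at 1.17. Col6a4, Col26a1, Col25a1, Col22a1, Col2a1, Col9a1 and Col9a2 stayed below 1 CPM in each of the 52 libraries, with Col6a4 highest at 0.994 CPM. Col2a1, the main collagen of cartilage, reached 0.328.

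All 44 genes together took 0.172% ± 0.0178 (SD, n = 4) of counts in D4 DTR- BAT and 1.24% ± 0.391 (SD, n = 4) in D4 DTR- SAT. Among the BAT groups the share was lowest in isotype-treated WT mice, at 0.120% ± 0.0147 (SD, n = 3), and highest in DTR+ mice given CL, at 0.357% ± 0.137 (SD, n = 3). No BAT library exceeded 0.505%, and no SAT library fell below 0.700%. In D4 BAT the DTR- libraries held 0.150 to 0.193% and the DTR+ libraries 0.228 to 0.276%, without overlap. The share is taken from library totals, on which the median gene was also 0.27 higher (log2) in the DTR+ libraries of this set. The mean shares of PBS-treated BAT, 0.178% ± 0.0961, and of the group at 4 degrees, 0.195% ± 0.0682 (SD, n = 3 each), differed by less than either SD. Sorted Treg cells held 0.00487 to 0.00776% collagen counts.

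**Figure D2:**
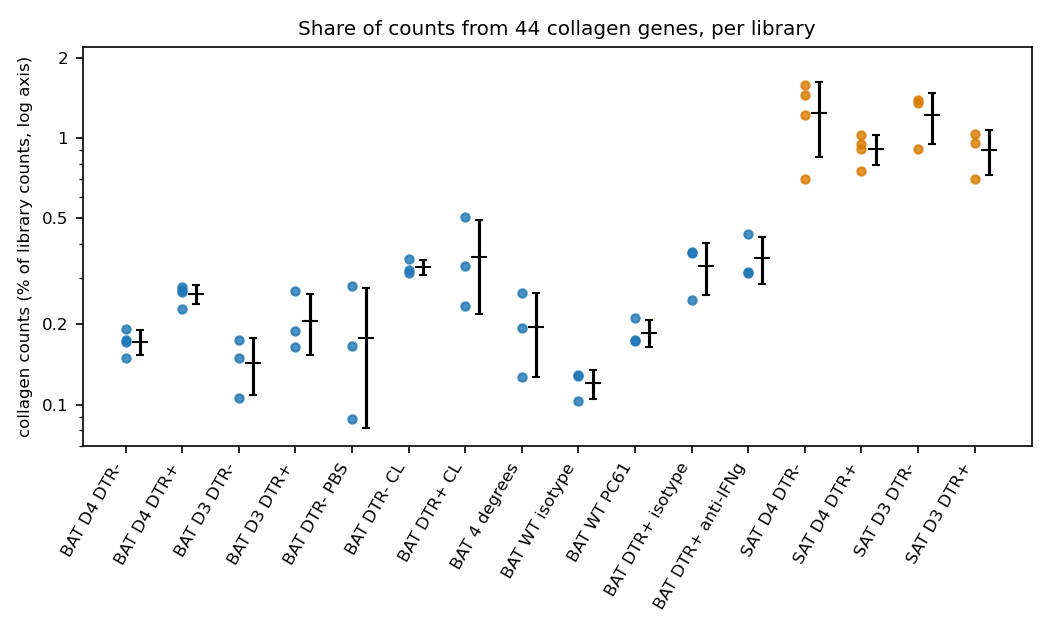
Share of all counts that came from the 44 collagen genes (y axis, percent, log scale) in each whole-fat library, by group (x axis), BAT in blue and SAT in orange, with the mean and SD of each group. Every SAT library lies above every BAT library.

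For chains that assemble into the same protein, the ratio per kilobase describes their balance. The ratio of Col1a1 to Col1a2, both per kilobase, was 0.963 ± 0.0512 in D4 DTR- BAT and 0.958 ± 0.0614 in D4 DTR- SAT (SD, n = 4 each). Over the 16 groups it ranged from 0.691 ± 0.142 in PBS-treated BAT to 1.30 ± 0.246 in DTR- BAT given CL (SD, n = 3 each). Col6a1 per kilobase was 1.08 ± 0.0936 of Col6a2 in D4 DTR- BAT, and 1.60 ± 0.281 in the group at 4 degrees. Col3a1 exceeded Col1a1 in every group, by a ratio of 2.18 ± 0.399 in D4 DTR+ SAT at the lowest and 4.197 ± 0.575 after PC61 at the highest. The ratio of Col4a1 to Col4a2, partners in the main collagen IV trimer, was 1.03 ± 0.150 in PBS-treated BAT, 1.45 ± 0.295 with CL in DTR- mice, 2.17 ± 0.442 with CL in DTR+ mice and 0.760 ± 0.0648 at 4 degrees (SD, n = 3 each). The 3 CL libraries of DTR+ mice were thus above the PBS group in this ratio by more than either SD. These ratios were not tested.

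Several members lie side by side in the genome, by the GENCODE M21 models of mm10. Col4a1 (chr8:11198423-11312826 (minus strand)) and Col4a2 (chr8:11312805-11449287 (plus strand)) are read away from each other, and their first exons share bases. Col4a4 (chr1:82448423-82586849 (minus strand)) and Col4a3 (chr1:82586921-82722059 (plus strand)) are also head to head, without overlap, as are Col4a6 (chrX:141165403-141474076 (minus strand)) and Col4a5 (chrX:141475385-141689234 (plus strand)). Col3a1 (chr1:45311538-45349706 (plus strand)) ends next to the end of Col5a2 (chr1:45374321-45503282 (minus strand)). Col6a2 (chr10:76595762-76623630 (minus strand)) and Col6a1 (chr10:76708792-76726168 (minus strand)) lie in the same direction, and Col6a3 (chr1:90765923-90843971 (minus strand)) stands on another chromosome. The library protocol keeps no strand, so reads from exons shared with a gene on the opposite strand cannot be assigned. Among expressed members this touches Col4a1 with Col4a2, Col4a2 with Gm15419, Col4a3 with C430014B12Rik, Col15a1 with Gm12426, Col6a6 with Gm38314 and Col5a1 with 2810430I11Rik and Gm13372. Among the rest it touches Col9a3, Col10a1, Col22a1 and Col6a4. Exons of Col3a1, Col7a1 and Col20a1 share bases with same-strand models, Gm47302, Mir711 and BX649560.1, and their counts may be split or lost there.

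More members differed between the depots than with any treatment. In the D4 set of DTR- mice, 16 of the 24 members tested were lower in BAT than in SAT and 3 were higher. Over all 12310 genes, 50.9% passed in either direction, 25% lower and 25.9% higher in BAT. The members' median log2 fold change was -1.92 (-1.44 with no filter on low counts), against 0.01 over all genes. Without the B cell-rich SAT library, 18 members were lower in BAT and 2 higher. In the D3 set, 17 of 25 members were lower in BAT and 2 higher, with a median of -2.09 (-0.70 when no filter on low counts was applied), where 22.9% of all 12387 genes were lower and 23% higher. On library totals alone the median gene was 0.47 lower (log2) in BAT in the D4 set and 0.49 lower in the D3 set, and the scaled values used here remove that shift.

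Among fibrillar chains, Col3a1 read 679, 588, 594 and 466 scaled CPM in the 4 D4 DTR- BAT libraries and 5946, 5416, 2154 and 4091 in SAT. The lowest SAT library, the B cell-rich replicate 3, was still above every BAT library, and the log2 difference of BAT from SAT was -2.85 ± 0.29 (SE; adjusted p = 3.1e-05). Col1a1, on chr11:94936224-94953042, plus strand, gave 1686 ± 653 scaled CPM in SAT and 249 ± 34.5 in BAT (SD, n = 4 each), a log2 difference of -2.69 ± 0.31 (adjusted p = 0.00011). Both collagen I chains and all 3 collagen V chains were lower in BAT in both sets. Col1a1 read 109, 194 and 217 in the 3 D3 BAT libraries and 1938, 2053 and 1062 in SAT (-3.21 ± 0.34, adjusted p = 0.00013), without overlap. Col5a1 was -2.54 in the D4 set (adjusted p = 1.2e-06). In the D3 set Col3a1 stood at 467 ± 126 in BAT and 4708 ± 914 in SAT (SD, n = 3 each), with a log2 difference of -3.26 ± 0.22 (adjusted p = 2.1e-07). Col5a3 was -2.53 (adjusted p = 3.1e-07) in the D4 set and -2.61 (adjusted p = 4.4e-08) in the D3 set, and Col5a2 was -2.84 and -2.95. The D4 and D3 sets share no libraries.

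The main basement membrane chains, Col4a1 and Col4a2, were lower in BAT as well. Col4a1 read 209, 203, 209 and 177 scaled CPM in D4 DTR- BAT and 535, 562, 415 and 412 in SAT, a log2 difference of -1.20 ± 0.12 (adjusted p = 9.6e-07). Col4a2 was -1.05 (adjusted p = 3.3e-06). In the D3 set Col4a1 was -1.18 (adjusted p = 1.2e-05) and Col4a2 -0.86 (adjusted p = 0.00026). Among the collagen VI chains, Col6a1 was -2.06 ± 0.21, Col6a2 -1.91 ± 0.17 and Col6a3 -1.93 ± 0.15 in the D4 set (adjusted p = 1.3e-05, 1.1e-06 and 1.9e-07). Col15a1 had the smallest adjusted p of the family in the D4 set. Its libraries read 19.0, 21.0, 18.1 and 15.6 in BAT and 95.2, 125, 98.1 and 84.1 in SAT, a log2 difference of -2.38 ± 0.14 (adjusted p = 7.2e-09). Every SAT library lay above all BAT libraries for these genes. In the D3 set Col6a1 was -2.27, Col6a2 -2.09, Col6a3 -2.25 and Col15a1 -2.62, all past the threshold.

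Col27a1, a fibrillar chain best known from cartilage, ran the other way. In BAT it read 15.4, 20.6, 38.2 and 23.4 scaled CPM in the D4 set, against 3.87, 5.13, 4.03 and 4.32 in SAT, and in the D3 set 30.2, 32.7 and 36.6 against 2.27, 4.73 and 6.72. Every BAT library was above every SAT library in both sets. The log2 differences were 2.57 ± 0.28 (adjusted p = 3.2e-06) and 2.93 ± 0.31 (adjusted p = 5.3e-06). Col12a1 was also higher in BAT, by 0.95 ± 0.38 (adjusted p = 0.049) in the D4 set, where the depots overlapped, and by 1.47 ± 0.38 (adjusted p = 0.0065) in the D3 set, where they did not. Col8a1 was higher in BAT in the D4 set (1.11 ± 0.35, adjusted p = 0.017, with overlapping depots), and in the D3 set had a log2 difference of 1.06 with adjusted p = 0.083. Col14a1 had -2.93 and -3.03 in the D4 and D3 sets, Col16a1 -2.63 and -2.35, and Col18a1 -2.29 and -2.28, all lower in BAT. Col4a4 was lower in BAT in both sets (-1.74 and -1.22), and Col6a6 in the D3 set (-1.78, adjusted p = 0.01). Col4a3, Col4a5, Col23a1 and Col28a1 passed in neither set.

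Genes that make, cut and bind collagen were also mostly lower in BAT. Of 26 tested genes for collagen synthesis and crosslinking, 23 were lower in BAT in the D4 set and none higher (median -1.37). P4hb, a subunit of the prolyl hydroxylase that stabilises the helix, was -1.99 ± 0.11 (adjusted p = 4.4e-09), and Adamts2, which trims fibrillar procollagens, -2.89 ± 0.19. Of 15 genes for breakdown and its inhibitors, 13 were lower in BAT, with Mmp14, a membrane collagenase, at -2.85. Collagen receptors held 8 of 10 lower and 2 higher, with the discoidin receptor Ddr2 at -2.66 and the integrin chain Itga1 at 1.08. Of 25 collagen-binding matrix genes 19 were lower and 2 higher, with Nid1, which links laminin to collagen IV, at -3.02. TGF-beta and matrix control genes were 6 lower and 2 higher of 16, with Ltbp1 at -2.78 and Ltbp2 at 2.93. The D3 set gave 19 of 26 synthesis genes lower and 1 higher, and 10 of 15 breakdown genes lower. All 10 fibroblast markers were lower in BAT in the D4 set, with a summed level of 1751 to 2998 scaled CPM against 16468 to 27721, and none was at 0 in SAT. Macrophage markers were 8 of 8 lower, at 171 to 388 against 1029.8 to 2707, and endothelial markers 8 of 9 higher, at 657 to 775 against 388 to 547. Their part in the collagen differences was not tested.

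**Figure D3:**
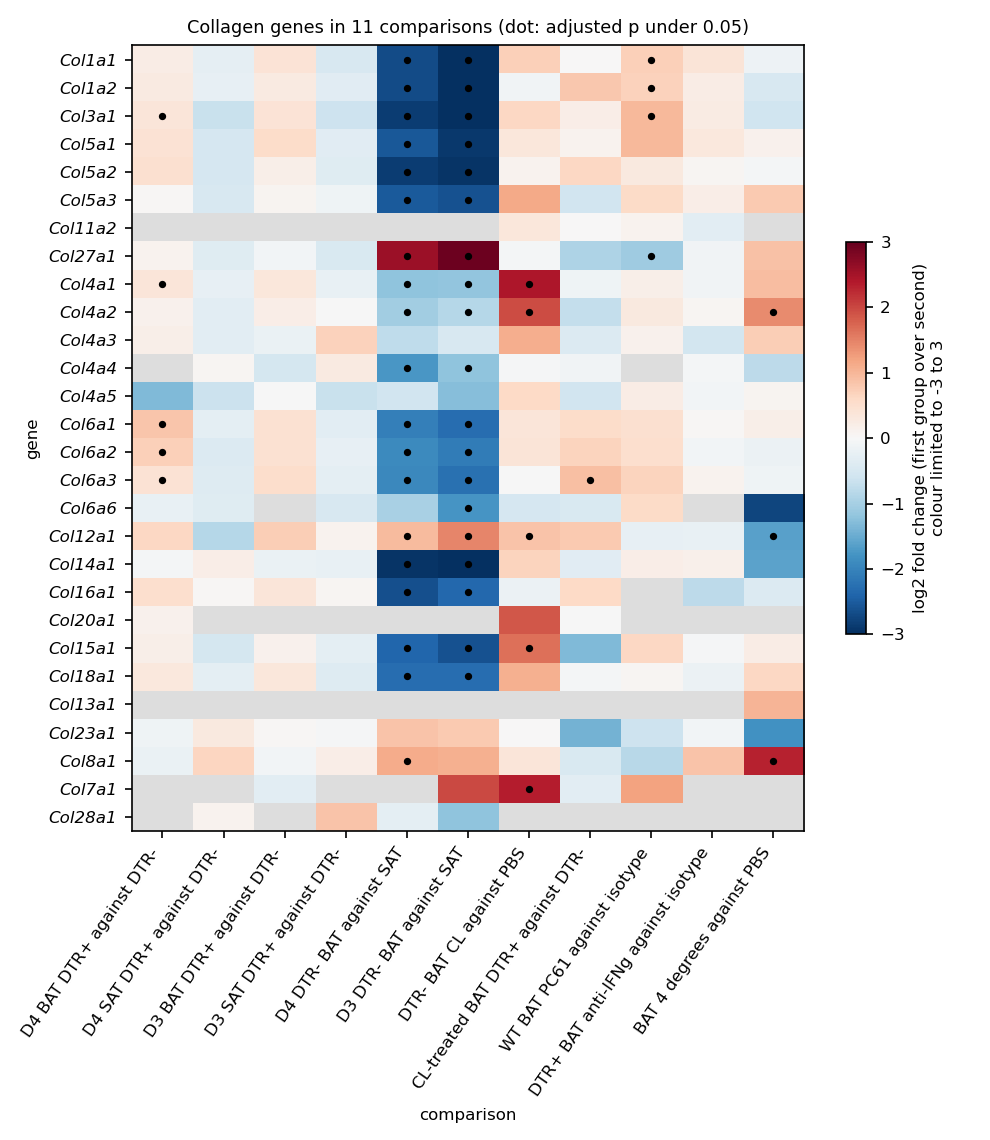
Log2 fold change (colour, limited to -3 to 3, red higher and blue lower in the first group named) of each expressed collagen gene (rows) in 11 comparisons (columns), grey where a gene was not tested and a dot where the adjusted p was under 0.05. Blue with dots fills both BAT against SAT columns for most genes, and the columns for D3 BAT, D4 SAT and D3 SAT DTR+ against DTR- and for anti-IFNg hold no dot.

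In the D4 set of BAT, collagen VI mRNA was higher in DTR+ mice, whose Foxp3+ cells DT targets, than in DTR- mice. Of 23 members tested, 5 rose in DTR+ mice and none fell, where 16.1% of all 11695 genes passed, 8.73% higher and 7.36% lower. They were the collagen VI chains Col6a1, Col6a2 and Col6a3, with Col4a1 and Col3a1. The members' median log2 fold change was 0.22, against 0.02 over all genes, and 18 of 23 lay above 0. Because the median gene on library totals was 0.27 higher (log2) in DTR+ libraries, 10 members passed without TMM scaling, and changes here are relative to that shift.

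The upstream sequences of the 3 collagen VI genes are shown because these genes rose together. The bases upstream of their RefSeq starts (GRCm38.p6, the assembly of mm10), up to 250 and with annotated exons left out, are given 5′ to 3′ on the gene's strand, and those of Col3a1 and Col27a1 are added as the most abundant member and the one with the opposite depot difference. The stretch of Col27a1 lies inside its GENCODE gene span, upstream of the RefSeq start. Capitals mark matches on either strand to the CCAAT box, the GC box GGGCGG or the TATA-like TATAAA.
Col6a1, chr10:76726169-76726294, minus strand: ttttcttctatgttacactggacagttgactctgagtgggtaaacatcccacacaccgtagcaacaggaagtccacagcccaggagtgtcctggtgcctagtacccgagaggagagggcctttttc
Col6a2, chr10:76623631-76623880, minus strand: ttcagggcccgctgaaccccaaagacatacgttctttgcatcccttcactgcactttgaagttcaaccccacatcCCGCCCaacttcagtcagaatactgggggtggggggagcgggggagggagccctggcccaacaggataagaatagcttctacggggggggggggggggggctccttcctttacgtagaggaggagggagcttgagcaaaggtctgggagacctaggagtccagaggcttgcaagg
Col6a3, chr1:90843972-90844221, minus strand: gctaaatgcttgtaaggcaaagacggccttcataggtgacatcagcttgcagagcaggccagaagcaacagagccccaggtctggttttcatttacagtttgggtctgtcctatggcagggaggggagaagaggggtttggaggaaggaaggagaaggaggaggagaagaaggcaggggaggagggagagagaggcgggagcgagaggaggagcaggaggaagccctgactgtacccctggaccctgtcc
Col3a1, chr1:45311288-45311537, plus strand: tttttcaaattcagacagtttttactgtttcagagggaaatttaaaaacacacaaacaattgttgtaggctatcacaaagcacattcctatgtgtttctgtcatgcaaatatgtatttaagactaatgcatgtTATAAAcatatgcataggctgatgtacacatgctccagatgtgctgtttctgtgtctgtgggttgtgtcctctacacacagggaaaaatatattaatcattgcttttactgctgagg
Col27a1, chr4:63215162-63215411, plus strand: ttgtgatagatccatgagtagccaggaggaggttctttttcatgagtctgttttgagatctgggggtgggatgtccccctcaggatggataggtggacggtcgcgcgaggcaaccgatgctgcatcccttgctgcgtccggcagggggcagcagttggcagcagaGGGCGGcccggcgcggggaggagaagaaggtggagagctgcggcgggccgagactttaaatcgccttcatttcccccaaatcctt
Col6a2 and Col27a1 each held 1 GC box in the stretch shown and Col3a1 held 1 TATAAA, while no match fell in those of Col6a1 and Col6a3. The Col6a1 stretch covers only positions -250 to -125, so the bases nearest its RefSeq start are not in it. The other stretches shown run to position -1. Over whole windows of 300 bases, RefSeq gave 38 for 35 of the 44 members. GGGCGG stood in 64% of the 25 windows of expressed members, 53.8% of the 13 windows of members below the limit and 35.7% of all 32851 windows. In the same order, CCAAT stood in 32%, 38.5% and 37.4%, and TATAAA in 12%, 15.4% and 13.6%. A window was counted once per motif, and a match describes the letters only.

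Col6a1 read 178, 204, 192 and 197 scaled CPM in the 4 DTR+ libraries and 126, 119, 105 and 90.7 in the 4 DTR- libraries. All DTR+ values were above all DTR- values, and the means, 193 ± 11.03 and 110.3 ± 15.8 (SD, n = 4 each), differed by 0.82 ± 0.11 on the log2 scale (adjusted p = 1e-04). Col6a2 stood at 156, 168, 157 and 151 against 101, 108, 93.7 and 89.3, again without overlap, a log2 difference of 0.71 ± 0.095 (adjusted p = 0.00012). Its partner Col6a3 read 68.3, 68.7, 71.4 and 72.3 against 60.4, 49.0, 56.0 and 43.99 (0.44 ± 0.12, adjusted p = 0.019). The ratio of Col6a3 to Col6a1 per kilobase was 0.166 ± 0.00915 in DTR+ and 0.217 ± 0.0227 in DTR- libraries (SD, n = 4 each). For the basement membrane, Col4a1 read 248, 240.4, 282 and 239.9 against 209, 203, 209 and 177, a rise of 0.36 ± 0.094 (adjusted p = 0.016) without overlap. Col4a2 had 0.14 (adjusted p = 0.36). Col3a1 rose the least firmly: its libraries read 826, 803, 596 and 726 against 679, 588, 594 and 466, which overlap, with a log2 difference of 0.36 ± 0.12 (adjusted p = 0.047).

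The collagen I and V chains did not pass in this set. Col1a1 was 286 ± 53.3 in DTR+ and 249 ± 34.5 in DTR- BAT (SD, n = 4 each), a log2 difference of 0.22 ± 0.14 (adjusted p = 0.33), and Col1a2 had 0.26 (adjusted p = 0.25). Col5a2 came nearest, at 0.47 ± 0.17 (adjusted p = 0.066), with Col5a1 at 0.43 ± 0.16 (adjusted p = 0.09). Col15a1 had 0.18 (adjusted p = 0.55) and Col18a1 0.33 (adjusted p = 0.44). Col6a1 and Col6a2 passed in all 14 alternative settings. Col3a1 passed in 6 of them, with an adjusted p of 0.41 when both depots were fitted together, and leaving out any library but DTR- replicate 1 or DTR+ replicate 3 ended its call (adjusted p from 0.1 to 0.2). Col4a1 and Col6a3 each lost the call with 3 of the 8 libraries left out, DTR- replicates 2 and 4 among them for both, DTR+ replicate 3 for Col4a1 and DTR+ replicate 4 for Col6a3 (adjusted p from 0.055 to 0.092).

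Genes that act on collagen were counted beside it. Of 24 synthesis genes 2 rose: P4hb, at 205 ± 19.7 against 137 ± 6.18 scaled CPM (SD, n = 4 each), by 0.60 ± 0.099 (adjusted p = 0.00066), and Pcolce, which speeds procollagen trimming, by 0.37 ± 0.12 (adjusted p = 0.041). Of 15 breakdown genes and inhibitors 7 rose and none fell. The metalloproteinase inhibitor Timp1 read 4.62, 15.7, 25.2 and 12.5 against 1.70, 0.866, 1.17 and 1.05, a log2 difference of 3.58 ± 0.48 (adjusted p = 0.00017). The macrophage elastase Mmp12 rose by 5.47 ± 0.75 (adjusted p = 0.0042) and Mmp14 by 1.18 ± 0.27. Lair1, an inhibitory collagen receptor of leukocytes, was the only called receptor of 9, at 2.46 (adjusted p = 0.017). Of 25 collagen-binding genes 5 rose and 1 fell, with the fibril-binding Lum at 0.85, Bgn at 0.43 and Prelp at -0.60. In the TGF-beta list 2 rose and 2 fell of 15, with the signal mediator Smad3 at 0.83 and Tgfbr3 at 0.50, and the latent TGF-beta binding protein Ltbp2 at -0.45.

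Cell markers differed between these groups too. Of 8 macrophage markers 5 rose, and their summed level was 611 to 1288 scaled CPM in DTR+ and 171 to 388 in DTR- libraries, without overlap. The summed 10 fibroblast markers were 1828 to 2622 and 1751 to 2998, with Ly6a and Cd34 called higher, and the 9 endothelial markers 597 to 744 and 657 to 775, with Kdr called lower. Skeletal muscle markers ranged from 23.7 to 8051 and from 18.1 to 3419. None of the macrophage markers was at 0 throughout these 8 libraries. The part of these cells in the collagen VI rise was not tested.

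The D3 set of BAT had no called member. Of 23 members none passed in edgeR, 5 had an unadjusted p under 0.05 and DESeq2 called 0, where 3.52% of all 11666 genes passed, 2.24% higher and 1.29% lower. The median was 0.20. Col6a1 read 106, 189.6 and 119 scaled CPM in DTR+ and 101, 97.2 and 102 in DTR- libraries, a log2 difference of 0.46 ± 0.19 (adjusted p = 0.22): all DTR+ values were above all DTR- values, replicate 2 by the most. Col12a1 had the smallest p, at 17.9, 18.3 and 22.6 against 9.93, 11.1 and 14.1 without overlap (0.73 ± 0.22, adjusted p = 0.093). Col4a1 had 0.33 ± 0.13 (adjusted p = 0.2), Col6a3 0.53 ± 0.20 (0.19), Col3a1 0.40 ± 0.32 (0.6), Col1a1 0.40 ± 0.36 (0.65) and Col15a1 0.14 ± 0.26 (0.84). Among related genes Timp1 rose by 2.23 ± 0.54 (adjusted p = 0.041) and Ltbp2 had -0.56 (adjusted p = 0.037). Macrophage markers summed to 356 to 411 in DTR+ and 161 to 279 in DTR- libraries, with none of 8 called.

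In SAT the members' values lay mostly on the other side of 0. Of 24 members in the D4 set none passed in edgeR (8 at an unadjusted p under 0.05, 0 by DESeq2), where 0.314% of all 12728 genes passed, 0.299% higher and 0.0157% lower, and the median log2 difference of DTR+ from DTR- was -0.32, with 18 of 24 below 0. Col3a1 read 2654, 3154, 2294 and 2918 scaled CPM in DTR+ and 5946, 5416, 2154 and 4091 in DTR- libraries (-0.67 ± 0.26, adjusted p = 0.61). The lowest DTR- value was that of the B cell-rich replicate 3, which stood at 749 for Col1a1 where the other 3 read 2209, 2042 and 1746. Without this library Col3a1 was lower in DTR+ SAT, at -0.89 (adjusted p = 0.013), and 3 members were lower. With the muscle-rich DTR+ replicate 3 left out as well, Col3a1 stood at -0.80 (adjusted p = 0.015) and 3 members were again lower. Col5a3 had -0.49 ± 0.14 (adjusted p = 0.38), Col15a1 -0.52 ± 0.18 (0.54), Col6a1 -0.30 ± 0.20 (0.77), Col4a1 -0.25 ± 0.12 (0.69) and Col1a1 -0.27 ± 0.31 (0.88). Macrophage markers summed to 1663 to 2604 and 1029.8 to 2707 scaled CPM, with none of 8 called.

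The D3 set of SAT had no called gene of 12596 in edgeR (0%), with 629 at an unadjusted p under 0.05 and 19 by DESeq2. Among the 24 members tested there, 4 had an unadjusted p under 0.05 and 0 were called by DESeq2. Col3a1 read 2258, 3530.3 and 3398 scaled CPM in DTR+ and 5242, 5228 and 3653 in DTR- libraries. All DTR+ values were below all DTR- values, with a log2 difference of -0.63 ± 0.20 (adjusted p = 0.84). Col1a1 had -0.49 ± 0.25, Col6a1 -0.32 ± 0.19, Col15a1 -0.29 ± 0.24 and Col4a1 -0.21 ± 0.13, each with adjusted p = 0.98. The median over members was -0.27, and 18 of 24 were below 0.

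Whether the DTR+ effect differed between depots was tested directly, as the effect in BAT minus that in SAT. A positive difference means a change further up, or less far down, in BAT, and not a stronger one. In the D4 set 6 of 27 members had a positive difference and none a negative one. Of all 13502 genes 4.11% passed, 3.06% positive and 1.05% negative. They were Col6a2 (1.09 ± 0.20, adjusted p = 0.0052), Col6a1 (1.09 ± 0.24, 0.016), Col6a3 (0.80 ± 0.18, 0.019), Col4a1 (0.57 ± 0.15, 0.035), Col5a1 (0.91 ± 0.25, 0.044) and Col5a2 (0.95 ± 0.26, 0.045), as log2 differences with SE. For Col6a1 the DTR+ libraries of SAT read 342, 458, 344 and 420.0 scaled CPM and the DTR- libraries 549, 619, 284 and 478, which overlap, while those of BAT did not. In SAT, Col5a1 read 126, 104, 109 and 110 in DTR+ and 189, 209, 103 and 146 in DTR- libraries. Col5a2 read 192, 218, 185 and 208 against 336, 347, 177 and 288. For both, the DTR- values apart from replicate 3 were above all DTR+ values. In BAT both leaned higher in DTR+ without passing. The 3 collagen VI genes passed in all 21 alternative settings, which include leaving out each library that stands apart: Col6a1 was 1.32 without the B cell-rich library and 1.02 without the muscle-rich one, and 7 and 4 members passed. The others were less firm: Col4a1 passed in 12 of the 21, Col5a1 in 9 and Col5a2 in 7. Col5a2 lost the call with any library left out but BAT DTR- replicate 3 or SAT DTR- replicate 3. Col5a1 lost it with any but BAT DTR- replicate 2, BAT DTR+ replicate 3, SAT DTR- replicate 3 or SAT DTR+ replicate 1. Col4a1 lost it without BAT DTR- replicates 2 or 4, BAT DTR+ replicates 2, 3 or 4, SAT DTR- replicates 1 or 2, or SAT DTR+ replicates 2 or 4. The adjusted p in these cases ran from 0.051 to 0.1. Col3a1 had 1.00 ± 0.32 (adjusted p = 0.1), and 1.27 (adjusted p = 0.0011) without the B cell-rich library. Col15a1 had 0.67 ± 0.25 (adjusted p = 0.13) and Col1a1 0.46 ± 0.38 (0.59).

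Among related genes of the D4 set, the difference was also positive for P4hb (0.68), the collagen galactosyltransferase Colgalt1 (0.87), Timp1 (3.94), Mmp12 (5.73), the cathepsin Ctss (3.44), Lum (1.16), Tgfbr3 (0.58) and Smad3 (0.85). Of the 8 macrophage markers 1 passed in this test and of the 10 fibroblast markers none. In the D3 set none of 26 members passed in edgeR (7 at an unadjusted p under 0.05, 0 by DESeq2), where 0.0675% of all 13325 genes did, 0.06% positive and 0.0075% negative. Col4a1 had 0.52 ± 0.18 (adjusted p = 0.29), Col3a1 1.01 ± 0.39 (0.38), Col6a1 0.77 ± 0.32 (0.4), Col1a1 0.87 ± 0.50 (0.57) and Col15a1 0.41 ± 0.40 (0.77).

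**Figure D4:**
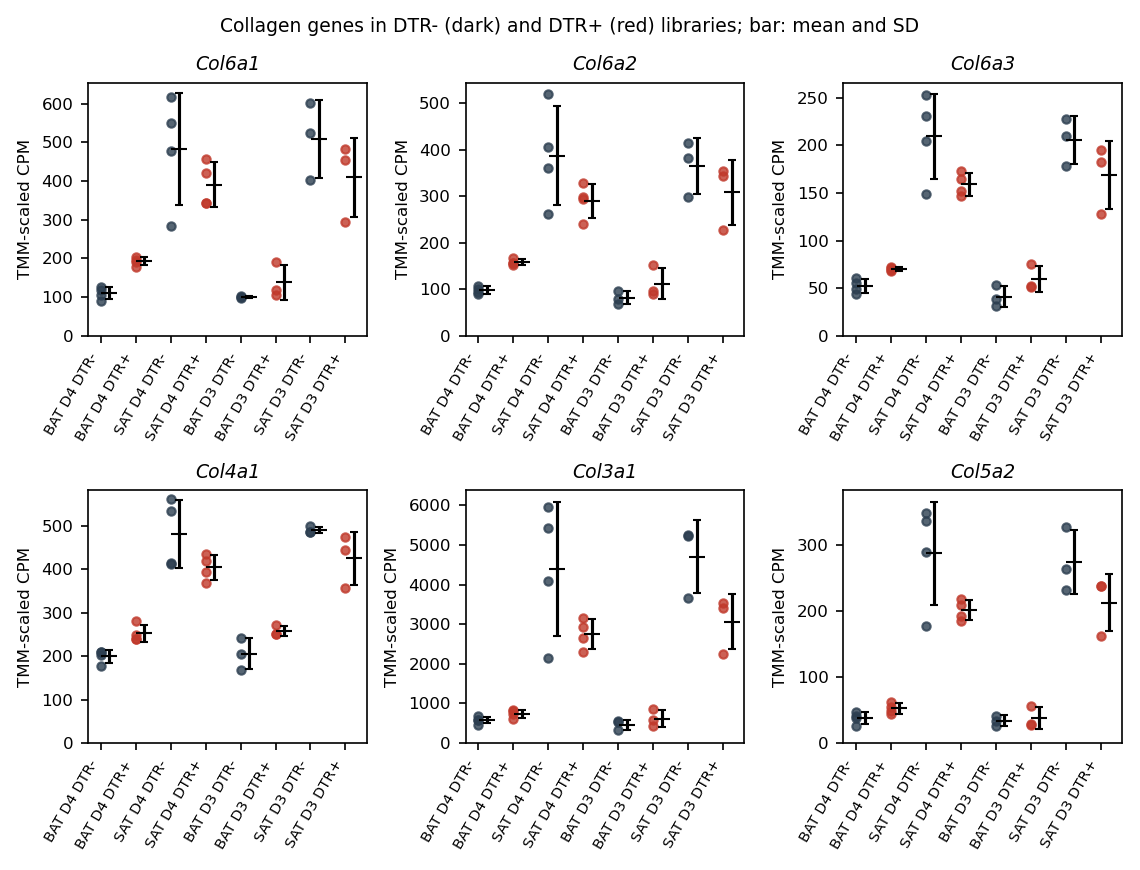
Scaled CPM (y axes, from 0) of 6 collagen genes in each library of the D4 and D3 sets, by depot and genotype (x axes), with DTR- libraries dark, DTR+ libraries red and the mean with SD beside the points. In D4 BAT the red points of Col6a1, Col6a2, Col6a3 and Col4a1 lie above the dark ones, and in SAT the same genes have overlapping points in the D4 set.

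CL in DTR- BAT went with a large rise of the basement membrane chains. Of 26 members 5 rose and none fell, where 28.1% of all 12048 genes passed, 16.3% higher and 11.8% lower, and the members' median was 0.49 against -0.03 over all genes. Col4a1 read 1067, 761 and 893 scaled CPM with CL and 227, 203 and 85.9 with PBS. Every CL value was above every PBS value, and the log2 difference was 2.42 ± 0.38 (adjusted p = 0.001). Col4a2 read 646, 667 and 532 against 219, 167 and 94.4, also without overlap (1.96 ± 0.33, adjusted p = 0.0011). The minor chains Col4a3 (1.09, adjusted p = 0.25), Col4a4 (-0.04, 0.98) and Col4a5 (0.59, 0.55) did not pass.

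The other called members were lower per kilobase of transcript. Col7a1 read 17.2, 4.94 and 12.2 against 1.14, 4.44 and 1.27 (2.35 ± 0.61, adjusted p = 0.011), and its lowest CL value lay just above the highest PBS value. Col15a1 read 31.8, 33.7 and 17.3 against 14.3, 7.95 and 4.69 (1.65 ± 0.57, adjusted p = 0.047) and Col12a1 30.3, 26.4 and 22.4 against 21.7, 11.2 and 11.03 (0.86 ± 0.30, adjusted p = 0.048), neither with overlap. Col4a1 and Col4a2 passed in all 15 alternative settings, Col7a1 in all but the one without CL replicate 1 (adjusted p = 0.051), Col15a1 in 9 and Col12a1 in 4. Col15a1 and Col12a1 both lost the call without CL replicates 1 or 2, PBS replicates 2 or 3 or, in DTR+ mice, CL replicate 3, and Col12a1 also without CL replicate 2 of DTR+ mice. Fibrillar chains spread widely over the PBS libraries: Col3a1 read 1060.2, 662 and 344 with PBS and 1065, 979 and 1088 with CL (0.62 ± 0.36, adjusted p = 0.23), and Col1a1 348, 181 and 87.0 and 327, 339.6 and 320.1 (0.70 ± 0.46, adjusted p = 0.29). Without PBS replicate 1, the highest, Col3a1 passed at 1.06 (adjusted p = 0.035) and Col1a1 at 1.31 (adjusted p = 0.03), among 11 called members. Col6a1 had 0.36 ± 0.28 (adjusted p = 0.36).

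Of 27 synthesis genes 4 rose with CL and 2 fell. P4ha1, the catalytic subunit of prolyl hydroxylase, read 92.1, 83.0 and 125 scaled CPM against 20.7, 29.5 and 43.4 (1.67 ± 0.26, adjusted p = 0.00043). The collagen chaperone Serpinh1 rose by 1.83 ± 0.35 (adjusted p = 0.0022) and the lysyl hydroxylase Plod2 by 3.65 ± 0.89 (adjusted p = 0.008). Of 25 collagen-binding genes 5 rose and 2 fell, and Lamb1, a laminin chain of the basement membrane, rose by 1.85 ± 0.16 (adjusted p = 3.4e-06). Lum had -0.79 and Tnc, tenascin C, 1.90. Breakdown genes were 2 higher and 2 lower of 15, with the inhibitor Timp3 at 1.72 and Ctss at -2.53. Receptors were 2 higher and 2 lower of 10, with the integrin chain Itgb1 at 0.90 and the anthrax toxin receptor Antxr2, which takes up collagen VI, at -1.48. TGF-beta and matrix control held 7 higher and 2 lower of 17, with the SMAD repressor Skil at 3.46 and Ltbp2 at -1.79. Endothelial markers were 4 of 9 higher with CL, their sum 709 to 833 scaled CPM against 329 to 584, without overlap. Macrophage markers were 4 of 8 lower, at 203 to 224 against 288 to 775, and none of 10 fibroblast markers passed, at 2263 to 3029.6 against 1811 to 2708. The part of these cells in the collagen IV rise was not tested.

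Among mice given CL, 1 of 26 members differed between DTR+ and DTR- BAT, where 7.72% of all 12048 genes passed, 4.51% higher and 3.21% lower. It was Col6a3, which read 98.6, 126 and 106 scaled CPM in DTR+ and 67.4, 57.6 and 57.5 in DTR- libraries, a rise of 0.89 ± 0.25 (adjusted p = 0.041) without overlap. Leaving out any of the 6 libraries compared ended that call, with adjusted p from 0.078 to 0.12. Col1a2 had 0.80 ± 0.26 (adjusted p = 0.078), Col6a1 0.56 ± 0.28 (0.23), Col12a1 0.79 ± 0.30 (0.12) and Col15a1 -1.33 ± 0.57 (0.17). Col4a1 read 468, 1043 and 915 in DTR+ libraries (-0.13 ± 0.36, adjusted p = 0.87), with replicate 1 far below the others. Without DTR+ replicate 2, Col15a1 passed at -2.15 (adjusted p = 0.037). Col3a1 had 0.20 ± 0.36 (adjusted p = 0.79) and Col1a1 0.00 ± 0.46 (1). This comparison shares its DTR- libraries with that of CL against PBS. Among 27 synthesis genes P4hb (0.74) and Pcolce (0.95) rose and Serpinh1 (-1.50) fell. Mmp12 rose by 6.70, Ctss by 4.61 and Timp1 by 2.96, among 4 of 15 breakdown genes that passed. Lair1 rose by 2.86, the proteoglycan Dcn by 1.05 and Lum by 1.47. Macrophage markers were 7 of 8 higher, summing to 1011 to 1149.8 scaled CPM against 203 to 224, and fibroblast markers 2 of 10 higher, at 3219 to 3747 against 2263 to 3029.6, and their part was not tested.

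At 4 degrees, 2 of 24 members were higher and 1 lower than in PBS-treated BAT, where 8.66% of all 12329 genes passed, 4.86% higher and 3.8% lower. The members' median was 0.00. The PBS group, shared with the CL comparison, also had DT, which the cold group had not, and the titles of the cold group name WT mice. Cold therefore cannot be told apart from DT, from a possible difference of strain or from a difference between experiments. Col4a2 read 321, 376 and 608 scaled CPM against 219, 167 and 94.4 (1.43 ± 0.33, adjusted p = 0.033), and Col4a1 265, 304 and 428 against 227, 203 and 85.9 (0.93 ± 0.35, adjusted p = 0.15). Neither gene overlapped between the groups. Col4a1 passed with DESeq2 (adjusted p = 0.015), without the filter on low counts (adjusted p = 0.0067) and with D3 DTR- BAT as the control (0.67, adjusted p = 0.02). In the other 10 of 13 alternatives, isotype-treated WT BAT as control among them, Col4a1 did not pass. Its log2 difference there went down to 0.25 and its adjusted p up to 0.35. Col8a1 read 7.09, 12.2 and 20.1 against 4.94, 2.10 and 0.888, a rise of 2.32 ± 0.61 (adjusted p = 0.038). Col12a1 read 4.00, 5.61 and 4.76 against 21.7, 11.2 and 11.03, a log2 difference of -1.62 ± 0.38 (adjusted p = 0.024). With D3 DTR- BAT as the control Col8a1 had 1.13 (adjusted p = 0.098) and with isotype-treated WT BAT 0.60 (adjusted p = 0.29), so its call depends on the control group. No call of this comparison was kept in every alternative: all 3 were lost without 4 degrees replicates 2 or 3. Col12a1 was also lost without PBS replicate 1 or 4 degrees replicate 1, Col4a2 and Col8a1 without PBS replicate 2, and Col8a1 without PBS replicate 3. Col3a1 had -0.59 ± 0.45 (adjusted p = 0.5), Col1a1 -0.16 ± 0.58 (0.91), Col6a1 0.18 ± 0.34 (0.8) and Col15a1 0.22 ± 0.47 (0.82).

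Synthesis genes at 4 degrees were 6 of 25 higher and none lower. Serpinh1 read 249, 270.0 and 267 scaled CPM against 70.6, 72.7 and 52.4 (1.99 ± 0.16, adjusted p = 0.00018), P4ha2 rose by 1.42 ± 0.31 and the lysyl oxidase Loxl1 by 0.87 ± 0.19. Elastin, Eln, rose by 2.94 and the SPARC-like Sparcl1 by 1.03, while Thbs2, thrombospondin 2, had -2.06, among 2 higher and 2 lower collagen-binding genes. Skil (1.03), Ccn1 (1.22) and Smad7 (1.99) were among 4 higher TGF-beta and matrix control genes. Of 9 endothelial markers 6 were higher, their sum 892 to 1107 scaled CPM against 329 to 584, and of 8 macrophage markers 1 was lower, at 220.1 to 284 against 288 to 775. Their part in the collagen values was not tested.

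**Figure D5:**
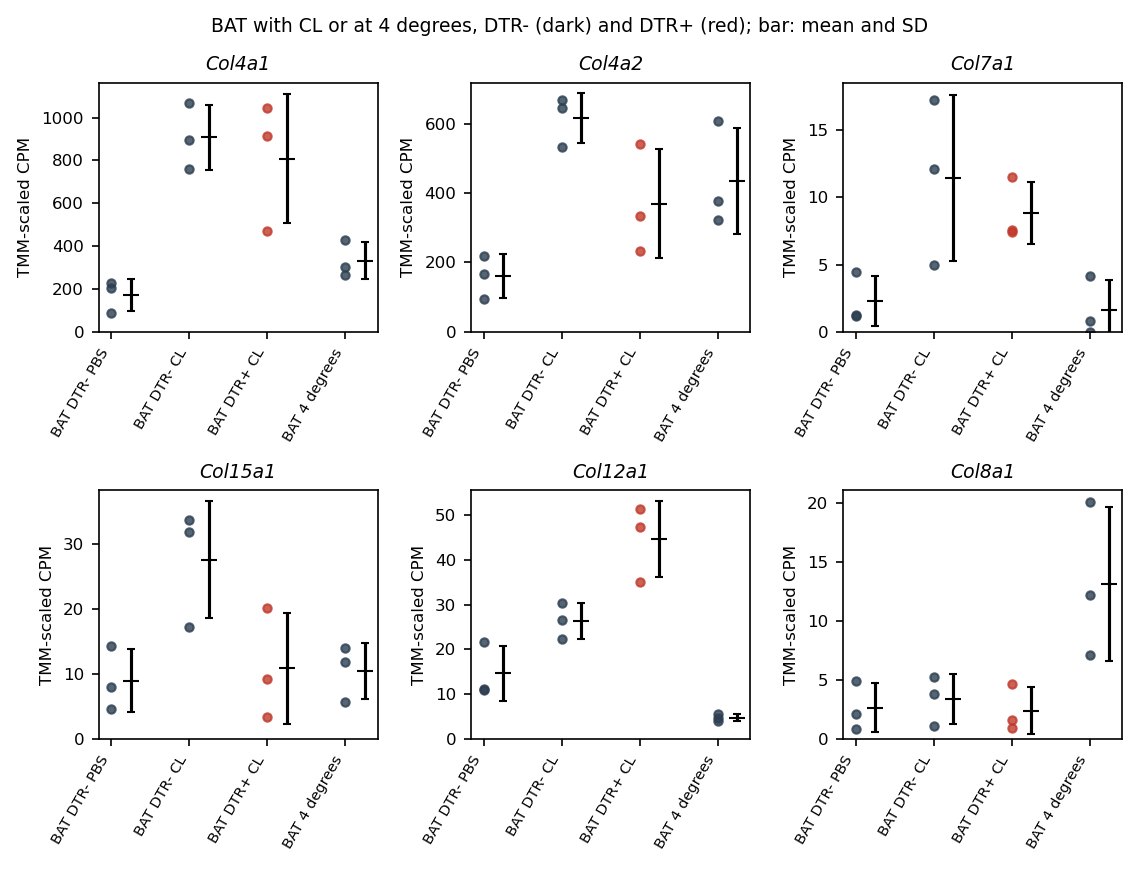
Scaled CPM (y axes, from 0) of 6 collagen genes in each BAT library given PBS or CL or kept at 4 degrees (x axes), DTR- dark and DTR+ red, with the mean and SD beside the points. Col4a1 and Col4a2 are higher with CL in DTR- mice than with PBS, Col8a1 is highest at 4 degrees, and Col12a1 is lowest there.

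After PC61 in WT mice, Col3a1 and both collagen I chains were higher and Col27a1 was lower. Of 23 members 3 rose and 1 fell, where 0.651% of all 11513 genes passed, 0.165% higher and 0.486% lower, and the members' median was 0.30, or 0.51 without isotype replicate 3. Col3a1 read 715, 509 and 606 scaled CPM after PC61 and 394, 270.4 and 289 after isotype, a rise of 0.96 ± 0.16 (adjusted p = 0.015). Col1a1 read 158, 147 and 159 against 111, 76.1 and 98.2 (0.72 ± 0.14, adjusted p = 0.029) and Col1a2 153, 119.6 and 158 against 100.3, 90.1 and 80.3 (0.69 ± 0.14, adjusted p = 0.035). Col27a1 fell, from 32.0, 34.5 and 31.8 to 19.0, 16.1 and 10.9 (-1.08 ± 0.23, adjusted p = 0.048). None of these 4 genes overlapped between the groups. Collagen VI did not pass here, with Col6a3 at 0.67 ± 0.18 (adjusted p = 0.12) and Col6a1 at 0.49 ± 0.16 (0.23). Neither gene overlapped between the groups, which is a description and no test. Col4a1 had 0.17 ± 0.13 (adjusted p = 0.71) and Col15a1 0.62 ± 0.30 (0.49). No member passed without isotype replicates 2 or 3 or without PC61 replicates 1 or 3, 2 passed without PC61 replicate 2 and 3 without isotype replicate 1. No gene of the synthesis, breakdown, receptor, collagen-binding or TGF-beta lists passed in edgeR. Skeletal muscle markers summed to 258 to 8960.2 scaled CPM after PC61 and 4.79 to 2187 after isotype, fibroblast markers to 1644 to 1812 and 1158 to 1606, and macrophage markers to 130.1 to 168 and 92.0 to 128, with none of the last 2 lists' genes called, and their part was not tested.

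Anti-IFNg in DTR+ mice given DT left the collagen genes without a call. Of 23 members none passed in edgeR, 1 had an unadjusted p under 0.05 and DESeq2 called 0, where 0.541% of all 12017 genes passed, 0.0333% higher and 0.508% lower. The median was -0.03. Col3a1 read 1070.3, 1457 and 1120.2 scaled CPM with the antibody and 1207, 1135 and 702 with isotype (0.24 ± 0.23, adjusted p = 0.86), and Col6a1 194, 216 and 184 and 225, 201 and 147 (0.03 ± 0.14, adjusted p = 0.98), both with overlap. Col8a1 had the smallest p, at 0.85 ± 0.40 (adjusted p = 0.61). Col1a1 had 0.40 ± 0.25 (adjusted p = 0.78), Col4a1 -0.11 ± 0.19 (0.93) and Col15a1 -0.03 ± 0.36 (0.99). Among the related and marker genes, Ly6a, an interferon-responsive surface protein in the fibroblast list, was lower at -0.78 ± 0.11 (adjusted p = 0.0011). A missed threshold with 3 libraries a group does not show that the collagen levels were alike.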

How the data were processed

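Whole brown and subcutaneous fat (52 libraries) and sorted Treg cells (8 libraries) were measured by RNA-seq, with Smart-seq2 and Nextera XT from 2 ng of RNA for the tissue, per the labels' protocols. The authors deposited whole-number gene counts. The submitters' processing notes name STAR 2.7.3a, featureCounts and the mm10 build. For the annotation release, the strand setting and multiply mapped reads, the choice is not given in the sources used here. Each of 13 comparisons was fitted to the deposited counts in R 4.3.3 with edgeR 4.0.16 (filterByExpr, TMM, robust quasi-likelihood F test) and limma 3.58.1, with Benjamini-Hochberg adjustment over the 11513 to 13502 genes tested and a threshold of 0.05. The SE given with a log2 difference was derived from the test, as the absolute difference divided by the square root of its F statistic. The scripts were tested on simulated data. Members and lists were chosen with earlier results of these data known. Named were the called members (all if 5 or fewer, otherwise the 8 with the smallest p), Col1a1, Col3a1, Col4a1, Col6a1 and Col15a1 in each comparison, and up to 3 called genes of each related list. The value of 1 called gene of a related list is not reported here. Further genes (Col5a3, Col12a1 and others with a test near the threshold or without overlap) were named after their values were seen. Gene models and lengths came from GENCODE M21 and upstream sequences from RefSeq (GRCm38.p6). Depth was 3007241 to 9673342 counts per whole-fat library, and CPM values carry the counting error of that depth. Replicates were compared over 60 pairs, and no pair agreed within sampling noise (chi-square per degree of freedom 7.14 at the lowest). Alternatives were DESeq2 1.42.0, RLE factors, no filter on low counts, library totals only (chosen after seeing the data), a replicate block, other groups in the fit, other controls and leaving out each library. Every count column was mapped to a sample. Same-numbered replicates deviated together by a correlation over 0.1 in every pair in none of the comparisons.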

Additional observations from a re-analysis of the deposited data

Results flagged for a closer look

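In the D4 set the effect of DTR+ against DTR- differed between BAT and SAT for 6 members by a test of the difference itself. As log2 values of the BAT effect minus the SAT effect, it was 1.09 for Col6a1, 1.09 for Col6a2, 0.80 for Col6a3, 0.57 for Col4a1, 0.91 for Col5a1 and 0.95 for Col5a2. The 3 collagen VI chains stand out because they passed in every alternative that was run, while the other 3 lost the call with single libraries left out.

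Sorted Treg cells, which enter no comparison here, held more than 3 counts of 4 expressed members in each of the 8 libraries. Col11a2 averaged 10.6 CPM (2.14 to 21.8), against 1.24 CPM in whole fat, and 18.4 CPM in spleen Treg cells. Col20a1 averaged 3.85 CPM (0.727 to 8.48), against 1.19 in whole fat. Col27a1 averaged 3.97 CPM, against 20.5 in whole fat, and Col7a1 2.08 CPM, against 2.49. The most abundant collagens of fat are not among these 4 genes. Nor are these the only members with counts in Treg cells. Members outside this rule reached at most 12.4 CPM for Col18a1, 12.0 for Col9a3, 11.5 for Col23a1 and 7.46 for Col10a1 in a Treg library.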

How the results depend on the processing

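Of the fold changes of named members under other settings, 1120 kept their direction and their side of the threshold, 111 lost it, 20 gained it and 31 changed sign, each of the last past the threshold in neither setting. The changes of sign outside left-out libraries were Col1a1 for DTR+ against DTR- with CL (-0.0277 with DESeq2, -0.0287 with RLE factors, -0.0283 with the replicate block, -0.00829 without the filter and -0.00925 with only those groups), Col6a1 for anti-IFNg (-0.0169 on library totals) and, at 4 degrees, Col1a1 (0.0710) and Col15a1 (-0.57) with D3 DTR- BAT as control and Col1a1 (0.95) and Col3a1 (0.52) with WT isotype BAT. With a library left out, Col15a1 ran from -0.17 to 0.34 for D3 BAT, Col1a1 ran from -0.46 to 0.24 for DTR+ with CL, Col4a1 ran from -0.38 to 0.14 for DTR+ with CL, Col3a1 ran from -0.17 to 0.41 for DTR+ with CL, Col15a1 ran from -0.50 to 0.19 for anti-IFNg, Col6a1 ran from -0.12 to 0.16 for anti-IFNg, Col4a1 ran from -0.28 to 0.11 for anti-IFNg, Col1a1 ran from -0.53 to 0.44 for 4 degrees, Col6a1 ran from -0.10 to 0.55 for 4 degrees, Col15a1 ran from -0.10 to 0.71 for 4 degrees. Members called moved by over 1.5 times in these cases. Without any filter on low counts they were 4 in D4 SAT, 3 in D3 BAT, 1 in D3 SAT, 5 for DTR+ against DTR- with CL, 6 at 4 degrees and 5 for the D3 difference between depots. On library totals only they were 10 in D4 BAT, 1 in D3 BAT, 3 for CL and 0 for DTR+ against DTR- with CL. The last was 2 with DESeq2 and 2 with only those groups in the fit. At 4 degrees it was 5 with the WT isotype group as control. With both libraries that stand apart left out, D4 SAT had 3.

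Counts of all genes moved as well. DESeq2 called 93 in D4 SAT, 19 in D3 SAT, 1581 for DTR+ with CL, 231 for PC61, 1603 at 4 degrees, 982 for the D4 and 142 for the D3 difference between depots. Without the filter these were 155, 72, 1552, 347, 1744, 887 and 273, with 788 in D3 BAT and 172 for anti-IFNg. Library totals gave 628 in D3 BAT (565 higher, 63 lower), 1073 for the D4 difference (1053 positive, 20 negative) and 62 for the D3 difference. D4 SAT had 71 without the libraries that stand apart, D3 SAT 3 with both depots in the fit, and 4 degrees 2724 with D3 DTR- and 2828 with WT isotype BAT as control. Scaled by TMM, the collagen share was 0.197% in D4 DTR- BAT, 0.785% in D4 DTR+ SAT, 0.369% with CL in DTR- BAT and 0.135% in WT isotype BAT. Medians over members moved to 0.47 in D4 BAT, -2.40 in D4 and -2.55 in D3 BAT against SAT on library totals, to -1.44, -0.70 and, for the D3 difference between depots, 0.05 without the filter, and to 0.51 for PC61 without isotype replicate 3. The causes were not tested.

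With each library left out in turn, members called ran from 2 to 5 for D4 BAT DTR+ against DTR-, 0 to 3 for the same in SAT, 0 to 0 for D3 BAT, 0 to 0 for D3 SAT, 16 to 20 for D4 BAT against SAT, 18 to 21 for D3 BAT against SAT, 2 to 11 for CL against PBS, 0 to 2 for CL in DTR+ against DTR-, 0 to 3 for PC61, 0 to 0 for anti-IFNg, 0 to 2 for 4 degrees, 3 to 7 for the D4 difference between depots, 0 to 0 for the D3 difference. Genes called ran from 1361 to 1879 for D4 BAT DTR+ against DTR-, 23 to 52 for the same in SAT, 118 to 391 for D3 BAT, 0 to 10 for D3 SAT, 5826 to 6303 for D4 BAT against SAT, 4935 to 5523 for D3 BAT against SAT, 2460 to 3428 for CL against PBS, 310 to 1354 for CL in DTR+ against DTR-, 11 to 100 for PC61, 40 to 61 for anti-IFNg, 499 to 1046 for 4 degrees, 309 to 679 for the D4 difference between depots, 4 to 63 for the D3 difference. The labels do not say whether same-numbered BAT and SAT libraries came from the same mouse. In the D4 DTR- groups such pairs deviated together by correlations of 0.038 to 0.12 (mean 0.080, others -0.027). The replicate block was therefore kept as an alternative only. With it 6 members were called in D4 BAT, 19 for D4 and 18 for D3 BAT against SAT, 4 for CL and 4 for PC61. It gave 7 for the D4 difference and 0 at 4 degrees, where 658 genes passed, and 11 genes passed in D3 SAT. No paired analysis was possible for anti-IFNg because its groups share fewer than 2 numbers. Groups of 3 or 4 libraries and members near 1 CPM limit what could be detected.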
